A study of Mus musculus with 12 samples.

Results

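Some of the 33 genes described here make serine, glycine, asparagine, aspartate, alanine, glutamine, cysteine and proline, or break down ornithine. Others run the folate one-carbon cycle, transaminate branched-chain amino acids, or carry amino acids across the plasma membrane. The 33 were chosen by name, as a fixed list of gene symbols matched exactly to the gene names of the deposited table, and all 33 were found among its 54532 genes. The rule uses no measured value, but the list was drawn up with earlier results of these data known. All 33 passed the filter on low counts that kept 16038 genes for testing.

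RNA was measured in C2C12, a mouse skeletal muscle line labelled as myoblasts, which serves as a model of muscle precursor cells and is a single immortal line, not a tissue. Confluent dishes had received perfluorooctanesulfonate (PFOS, a persistent perfluorinated surfactant) for 24 h at doses of 0, 2 or 6 µM, where 0 µM is the control. There were 4 libraries per dose, 12 in all, made from purified messenger RNA of cells with no other agent or genetic change named in the labels. The labels do not state whether the libraries of 1 dose stem from different cultures. P-values therefore reflect only how far these samples scatter, and that scatter may be technical.

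Serine is built from a glycolytic intermediate and passes its side-chain carbon to tetrahydrofolate, and the folate cycle hands these one-carbon units on for purine, thymidylate and formate production. This cycle runs in parallel in mitochondria and cytosol, with separate enzymes in each. Many of these enzymes, and several of the transporters, are known targets of ATF4, the transcription factor of the integrated stress response, which cells activate when amino acids run short or other stresses slow translation.

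The libraries held 30206155 to 45644739 counts at 0 µM, 39837059 to 50351082 at 2 µM and 39794974 to 44669988 at 6 µM. Genes with at least 1 count numbered 20470 to 21040 at 0 µM, 20377 to 21171 at 2 µM and 19292 to 20110 at 6 µM, so fewer were detected in each 6 µM library than in any other. The TMM scaling factors, 1.01 to 1.02 at 0 µM, 0.992 to 0.9996 at 2 µM and 0.984 to 0.992 at 6 µM, separated the control from both PFOS doses. The part of these library differences in the results below was not tested. No pair of libraries of 1 dose agreed within sampling noise. The summed level of 10 muscle markers was 353 to 427 CPM (counts scaled to a common library size by TMM factors) at 0 µM, 344 to 374 CPM at 2 µM and 322 to 356 CPM at 6 µM, and 4 of these markers (Myod1, Cdh15, Chrna1 and Myog) passed the test as lower at 6 µM than at 0 µM. The muscle markers Pax7 and Ckm were too low to test. Of 24 markers of fat, blood, vessel, epithelial and nerve cells, 5 were abundant enough to test (Cd68, Lyz2, Cd14, Cdh5 and Tubb3) and none passed it at either dose. The nerve marker Tubb3 averaged 18.4 CPM at 0 µM, 21.2 CPM at 2 µM and 23.2 CPM at 6 µM (edgeR adjusted p = 0.0517 at 6 µM against 0 µM). At 0 µM Cd14 averaged 7.58 CPM and Cdh5 5.64 CPM, beside 7.15 CPM for Myog and 30.3 CPM for Myod1. Adipoq, Retn and Sox10 were at 0 in all 12 libraries. Fewer cells of a type and less RNA per cell cannot be told apart in such bulk samples. The part of the lower muscle markers in the results below was not tested.

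PFOS was accompanied by small increases in many of these genes. At 6 µM, 13 of the 33 genes rose and 1 fell relative to 0 µM, in edgeR's quasi-likelihood test at a Benjamini-Hochberg adjusted p under 0.05 over all genes tested. The calls over all tested genes were 4.58% higher and 3.66% lower. At 2 µM, 12 of the 33 rose and 0 fell relative to 0 µM, where the calls over all tested genes were 1.61% higher and 0.742% lower. With upper-quartile scaling, 11 of the 33 rose and 2 fell at 6 µM, and the calls over all tested genes were 598 higher and 662 lower, in place of 735 and 587. In the same scaling 9 of the 33 rose and 0 fell at 2 µM, and the calls over all tested genes were 184 higher and 134 lower, in place of 258 and 119. With TMM scaling the genes that rose did so by 1.10 to 1.28-fold at 6 µM and by 1.11 to 1.25-fold at 2 µM.

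Counts by other rules were larger over all genes as well. At an unadjusted p under 0.05, 20 of the 33 were higher and 2 lower at 6 µM, against 10.8% of all tested genes in each direction, and 20 were higher and 3 lower at 2 µM, against 7.88% and 6.24%. DESeq2 called 18 higher and 2 lower at 6 µM, against 7.18% and 4.97% of the genes to which it gave an adjusted p, and 16 higher and 1 lower at 2 µM, against 3.77% and 1.59%. Limma-voom called 13 higher and 1 lower at 6 µM, against 4.95% and 3.83% of all tested genes, and 12 higher and 0 lower at 2 µM, against 1.85% and 0.829%.

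The count at 2 µM changed most without replicate 4 of that dose. In that fit 3 of the 33 rose at 2 µM (Mthfd1l, Aldh1l2 and Slc6a9), and 72 of all tested genes did so in place of 258. Without replicate 2 of 0 µM the count at 2 µM was 7, and that over all tested genes was 139. At 6 µM the count was 7 (Shmt2, Mthfd1l, Aldh1l2, Got2, Aldh18a1, Slc38a1 and Slc6a9) without 3 libraries that stood apart from their dose in an earlier analysis, which are replicate 1 of 0 µM and replicates 2 and 3 of 6 µM. Over all tested genes the count in that fit was 408, in place of 735. The root-mean-square deviations of these libraries from their dose mean on the log2 scale were 0.180, 0.162 and 0.153, in the order named. Replicate 4 of 0 µM, which was kept, had 0.151, so the last of them stood apart only narrowly. The fit also holds fewer libraries at 0 and 6 µM, and the part of that in the calls that ended was not tested.

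The median log2 fold change of the 33 genes was 0.14 at 6 µM against 0 µM, where it was -0.02 over all tested genes. At 2 µM against 0 µM the median was 0.13, beside -0.01 over all tested genes. In each of these comparisons 28 of the 33 log2 fold changes were above 0. Both comparisons use the same 4 libraries at 0 µM, so they are not independent of each other. The 4 libraries at 6 µM all lay above the 4 at 0 µM for 13 genes, a pattern held by 6.39% of all tested genes, and all lay below them for 2 genes, against 6.15%. At 2 µM the numbers were 18 genes above, against 4.77% of all tested genes, and 2 below, against 3.6%.

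Aldh1l2 lay above and Cth and Gpt2 lay below without overlap at 6 µM relative to 2 µM, so 1 gene was above and 2 were below, patterns held by 4.45% and 4.15% of all tested genes. Between these doses, 0 of the 33 genes were called higher and 0 lower at 6 µM than at 2 µM in edgeR's quasi-likelihood test, where the calls over all tested genes were 0.561% higher and 0.549% lower. At an unadjusted p under 0.05, 3 of the 33 were higher and 4 lower, against 5.75% and 6.77% of all tested genes. DESeq2 called 0 higher and 1 lower (Cth), against 1.78% and 1.62% of the genes to which it gave an adjusted p. Limma-voom called 0 either way, against 0.792% higher and 0.686% lower. A gene called at 1 dose and not at the other is therefore not shown to differ between them.

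Most of the 33 are abundant. Of the 33, 29 averaged at least 50 CPM, a limit chosen after the values were seen. Among the 4537 tested genes above that level, 11.8% were called higher and 4.41% lower at 6 µM than at 0 µM, and 4.36% were called higher and 0.992% lower at 2 µM than at 0 µM. Between 6 and 2 µM, 1.32% were higher and 1.06% lower. Of the 29, 13 were called higher and 0 lower at 6 µM, and 12 higher and 0 lower at 2 µM, each against 0 µM, and 0 either way between 6 and 2 µM.

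**Figure D1:**
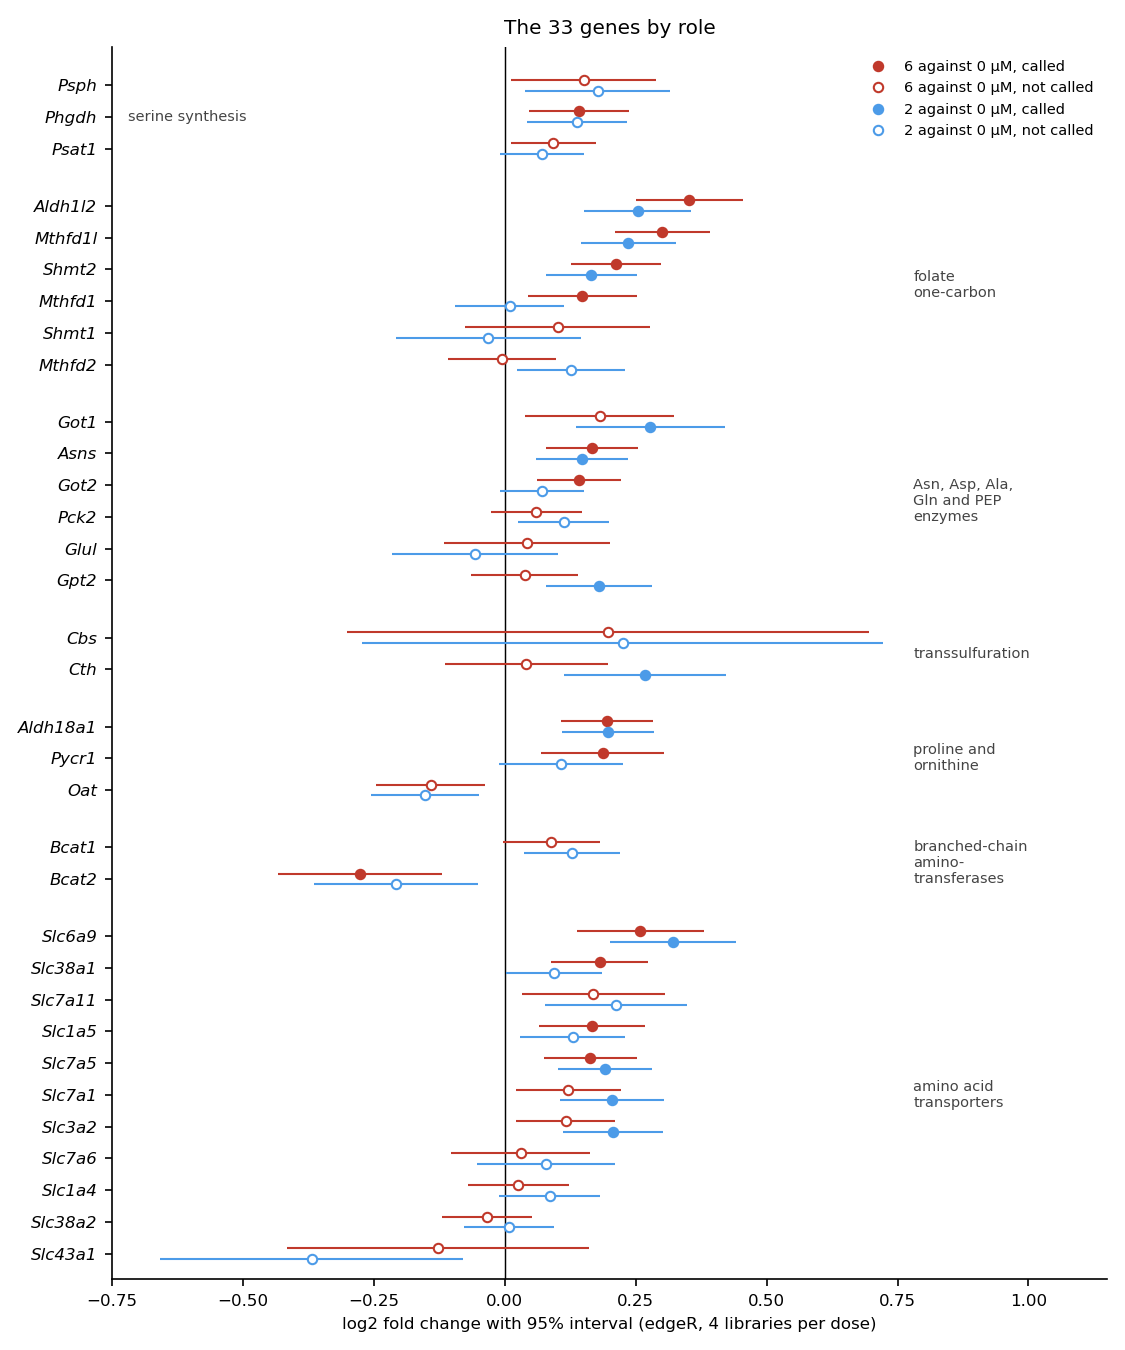
Log2 fold change of each of the 33 genes, grouped by role, at 6 µM against 0 µM (red, upper mark of each pair) and at 2 µM against 0 µM (blue, lower mark). Lines are 95% intervals from the standard errors and 9 residual degrees of freedom. Filled marks are genes called at an adjusted p under 0.05 in edgeR's quasi-likelihood test. Most marks lie right of 0, and Bcat2 is the only filled mark left of it.

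The 33 genes differed far more among themselves than between doses. Per kilobase of listed gene length (FPKM, computed from the counts), Slc7a5 led at 231 ± 11.97 FPKM at 0 µM, followed by Phgdh at 220 ± 10.1 FPKM and Asns at 197 ± 7.18 FPKM (mean ± SD, n = 4 each). The least abundant were Slc43a1 at 1.36 ± 0.111 FPKM and Cbs at 0.754 ± 0.199 FPKM. Averaged over all 12 libraries, Slc7a5 stood at percentile 98.95 of all tested genes by FPKM and Cbs at percentile 26.24. Together the 33 genes took 1.01 to 1.07% of all counts at 0 µM, 1.11 to 1.17% at 2 µM and 1.07 to 1.13% at 6 µM.

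**Figure D2:**
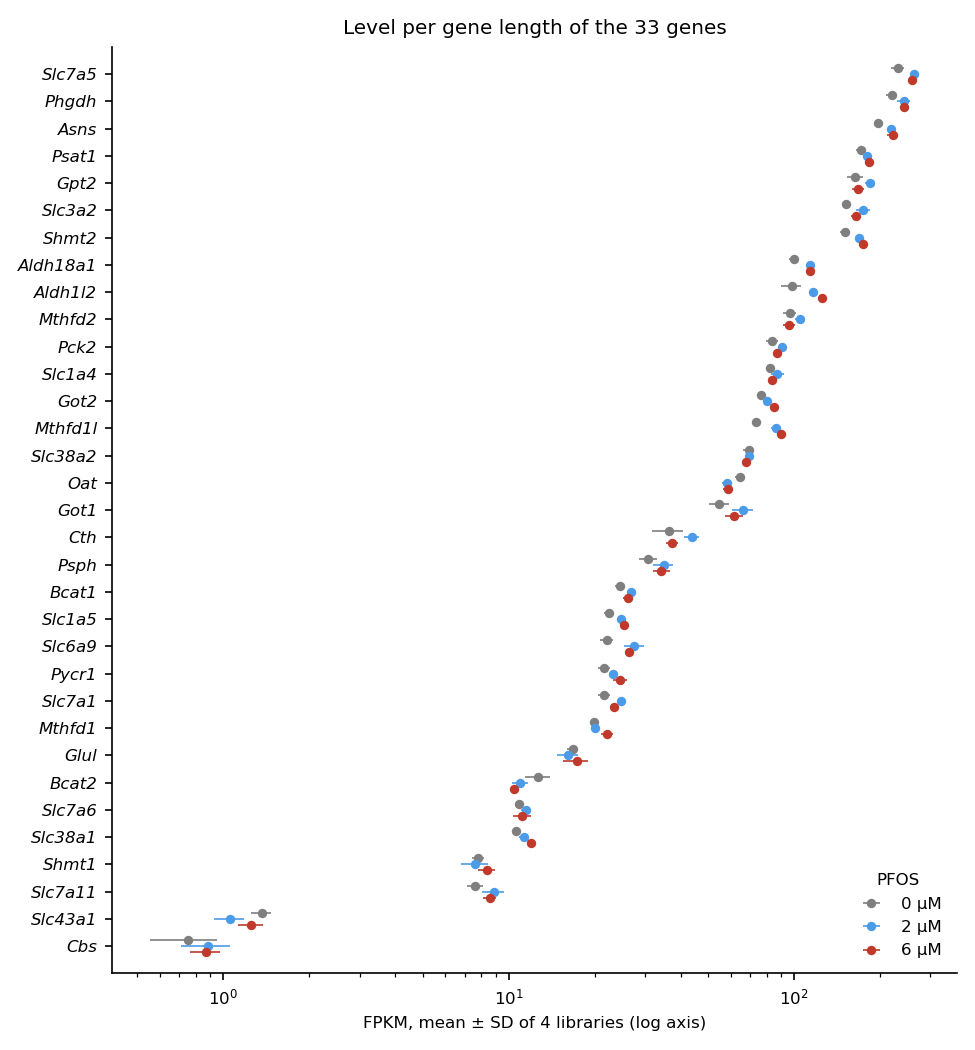
Level of each of the 33 genes in FPKM on a log axis, as mean ± SD over the 4 libraries at 0, 2 and 6 µM PFOS. The levels run from under 1 FPKM for Cbs to over 200 FPKM for Slc7a5 and Phgdh, and the 3 doses lie close together for each gene.

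The folate one-carbon genes held the largest relative increase of any role at 6 µM. Their summed level was 1897 to 2049 CPM at 0 µM, 2224 to 2380 CPM at 2 µM and 2299 to 2385 CPM at 6 µM, and the means at 2 and 6 µM were 114% and 118% of the mean at 0 µM. Of the 6 genes, 4 rose at 6 µM and 3 at 2 µM relative to 0 µM, and none fell. The calls over all tested genes were 4.58% higher and 3.66% lower at 6 µM, and 1.61% and 0.742% at 2 µM.

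Aldh1l2 is the mitochondrial enzyme that oxidises formyl-tetrahydrofolate to tetrahydrofolate and carbon dioxide, and its gene (ENSMUSG00000020256, chr10:83487450-83534140 in GRCm38, minus strand) showed the largest log2 fold change of the 33 at 6 µM. Its libraries held 797, 661, 724 and 758 CPM at 0 µM, 850, 852, 881 and 923 CPM at 2 µM and 943, 949, 932 and 930 CPM at 6 µM. The 3 doses did not overlap: each library at 2 µM lay above all at 0 µM, and each at 6 µM above all at 2 µM. The log2 fold change was 0.35 ± 0.0452 at 6 µM against 0 µM (1.28-fold, edgeR adjusted p = 2.4e-05) and 0.25 ± 0.0452 at 2 µM against 0 µM (1.19-fold, adjusted p = 0.00407), where ± is the standard error. Between 6 and 2 µM it was 0.10 ± 0.0451, which did not pass the test (adjusted p = 0.368). The gene overlaps D10Wsu102e on the other strand, and D10Wsu102e moved the other way, at 105 CPM at 6 µM and 123 CPM at 0 µM (log2 fold change -0.23, edgeR adjusted p = 0.00834). How the counting treated strand is not given in the sources used here, so reads of the 2 genes cannot be told apart where they overlap.

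Mthfd1l releases formate from formyl-tetrahydrofolate in mitochondria (ENSMUSG00000040675, chr10:3973118-4167081 in GRCm38, plus strand). It gave 331, 318, 328 and 322 CPM at 0 µM, 386, 375, 366 and 403 CPM at 2 µM and 413, 389, 414 and 385 CPM at 6 µM. Both PFOS doses lay wholly above 0 µM and overlapped each other. Its log2 fold change was 0.30 ± 0.0400 at 6 µM against 0 µM (edgeR adjusted p = 3.51e-05) and 0.24 ± 0.0400 at 2 µM against 0 µM (adjusted p = 0.00269).

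Shmt2, the mitochondrial serine hydroxymethyltransferase that moves a carbon from serine to tetrahydrofolate (ENSMUSG00000025403, chr10:127517123-127522444 in GRCm38, minus strand), was also above the controls at both doses. Its levels were 446, 476, 486 and 465 CPM at 0 µM, 517, 518, 519 and 546 CPM at 2 µM and 559, 555, 528 and 529 CPM at 6 µM, so that no PFOS library overlapped the control. It rose with a log2 fold change of 0.21 ± 0.0381 at 6 µM (edgeR adjusted p = 0.000949) and 0.17 ± 0.0381 at 2 µM (adjusted p = 0.0221), each against 0 µM. The call at 2 µM ended without replicate 4 of 2 µM (adjusted p = 0.116) and without the 3 libraries that stood apart (adjusted p = 0.0545).

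Of the 2 cytosolic enzymes of the cycle, Mthfd1 was called at 6 µM and Shmt1 at neither dose. Mthfd1, the cytosolic trifunctional enzyme of the cycle, gave 88.8, 88.4, 88.5 and 88.5 CPM at 0 µM, 88.8, 88.2, 87.8 and 91.7 CPM at 2 µM and 91.5, 101, 97.8 and 103 CPM at 6 µM. It was called higher at 6 µM against 0 µM with a log2 fold change of 0.15 ± 0.0459 (edgeR adjusted p = 0.0482), and its 2 µM value of 0.01 ± 0.0459 did not pass (adjusted p = 0.955). That call was close to the threshold: it ended in 10 of 12 fits that left out 1 library, at adjusted p from 0.0592 to 0.147, and was kept only without replicate 3 of 2 µM or replicate 1 of 6 µM. With the replicate number as a block its adjusted p was 0.0761, without the 3 libraries that stood apart 0.213, with upper-quartile scaling 0.0744, with no count filter 0.0852 and with only the 2 doses fitted 0.0762. Shmt1, the cytosolic hydroxymethyltransferase, stayed between 26.5 and 35.1 CPM in all 12 libraries and was not called at either dose (adjusted p = 0.499 at 6 µM and 0.903 at 2 µM). Shmt1 overlaps Smcr8 on the other strand, which averaged 60.4 CPM at 0 µM, 60.1 CPM at 2 µM and 64.4 CPM at 6 µM and was not called. With the strand setting not given, the Shmt1 counts and the Shmt2 to Shmt1 ratio below may include reads of Smcr8.

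Mthfd2, the mitochondrial dehydrogenase and cyclohydrolase between Shmt2 and Mthfd1l in the pathway, did not pass the test at either dose. It had 354, 325, 346 and 318 CPM at 0 µM, 355, 364, 358 and 389 CPM at 2 µM and 328, 359, 329 and 323 CPM at 6 µM. All 2 µM libraries lay above the 0 µM ones, narrowly, and the 6 µM libraries overlapped them. The log2 fold change at 6 µM against 0 µM was -0.01 ± 0.0454 with a 95% interval of -0.11 to 0.10 (edgeR adjusted p = 0.965), and at 2 µM against 0 µM it was 0.13 ± 0.0454 (adjusted p = 0.173).

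On the FPKM scale the mitochondrial folate genes exceeded their cytosolic counterparts at every dose, and no test was run on these ratios. The level of Shmt2 over Shmt1 was 19.3 ± 1.34 at 0 µM, 22.3 ± 2.80 at 2 µM and 20.9 ± 1.497 at 6 µM (mean ± SD, n = 4 each). Mthfd1l over Mthfd1 was 3.67 ± 0.0591 at 0 µM, 4.30 ± 0.0971 at 2 µM and 4.10 ± 0.350 at 6 µM. The lowest of the PFOS libraries in that ratio, 3.75 at 6 µM, lay just above the highest at 0 µM, 3.74, while the ratio of Shmt2 to Shmt1 overlapped between the doses. Mthfd2 over Mthfd1 was 4.83 ± 0.242 at 0 µM, 5.24 ± 0.126 at 2 µM and 4.35 ± 0.256 at 6 µM. Its 6 µM libraries (4.02 to 4.56) lay below those at 0 µM (4.57 to 5.08), and its 2 µM libraries (5.09 to 5.40) lay above them.

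**Figure D3:**
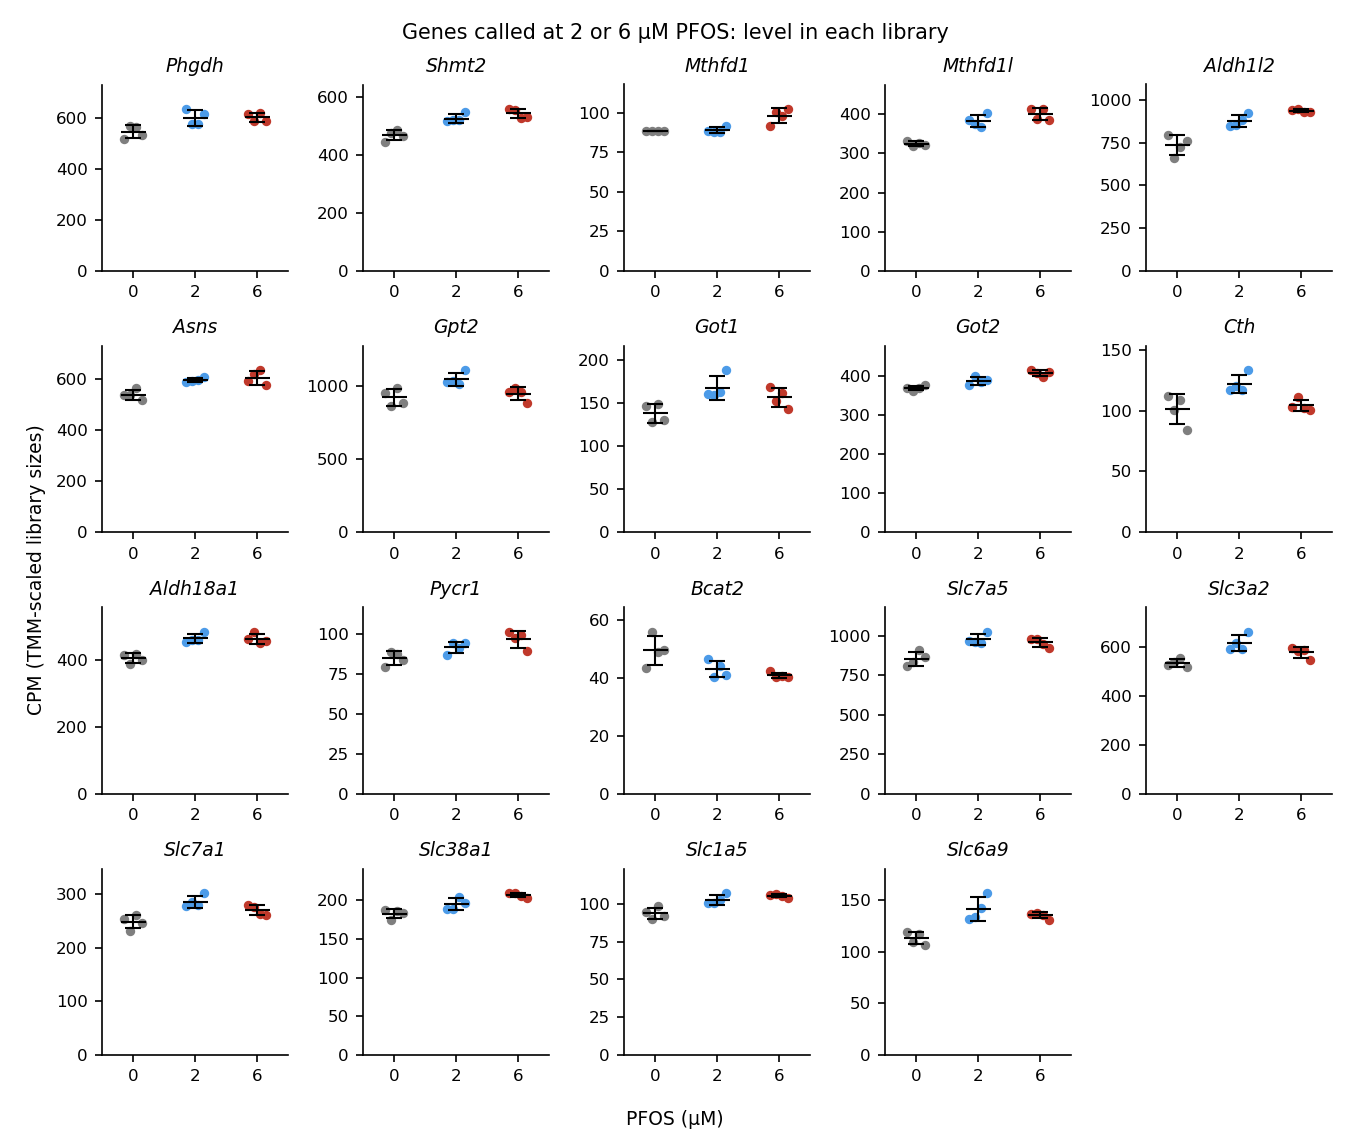
CPM of each of the 19 genes called in at least 1 comparison with 0 µM, 1 point per library at 0, 2 and 6 µM PFOS, with the mean ± SD of the 4 libraries. Aldh1l2 steps up at both doses, Cth and Gpt2 are highest at 2 µM, and Bcat2 is lower with PFOS.

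Of the 3 enzymes that make serine, Phgdh rose at 6 µM and none was called at 2 µM. Phgdh, which takes the first step from the glycolytic intermediate, had 518, 570, 564 and 532 CPM at 0 µM, 637, 576, 575 and 616 CPM at 2 µM and 615, 588, 621 and 588 CPM at 6 µM. No PFOS library reached down to the control range, although the gap was small. Its log2 fold change against 0 µM was 0.14 ± 0.0422 at 6 µM (edgeR adjusted p = 0.0386) and 0.14 ± 0.0421 at 2 µM (adjusted p = 0.0932). The 6 µM call ended in 5 of 12 fits that left out 1 library (replicates 1 and 4 of 0 µM and 1, 3 and 4 of 6 µM, adjusted p from 0.0524 to 0.109), with the replicate block (0.0682), with upper-quartile scaling (0.0627) and without the 3 libraries that stood apart (0.224).

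Psat1, the aminotransferase of the second step, ranged from 690 to 793 CPM over the 12 libraries, with log2 fold changes of 0.09 ± 0.0356 at 6 µM and 0.07 ± 0.0356 at 2 µM (edgeR adjusted p = 0.118 and 0.378). Psph, the phosphatase of the last step, had 0.15 ± 0.0611 at 6 µM and 0.18 ± 0.0611 at 2 µM (adjusted p = 0.141 and 0.150). Psph overlaps Cct6a on the other strand, a chaperonin gene that was called higher at 6 µM than at 0 µM (293 CPM at 6 µM and 260 CPM at 0 µM, adjusted p = 0.00624).

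Among the 6 enzymes of asparagine, aspartate, alanine, glutamine and phosphoenolpyruvate, Asns and Got2 rose at 6 µM, and Asns, Gpt2 and Got1 at 2 µM, relative to 0 µM. Asns, which makes asparagine from aspartate and glutamine and is a classic ATF4 target, had 538, 536, 566 and 518 CPM at 0 µM, 590, 595, 598 and 608 CPM at 2 µM and 591, 620, 635 and 576 CPM at 6 µM. Every PFOS library was above every control library. The log2 fold change was 0.17 ± 0.0385 at 6 µM (edgeR adjusted p = 0.00836) and 0.15 ± 0.0385 at 2 µM (adjusted p = 0.0435), each against 0 µM. At 2 µM the call ended in 8 of 12 fits without 1 library (all but those without replicate 3 of 0 µM or replicates 2, 3 or 4 of 6 µM, adjusted p from 0.0502 to 0.155), with the replicate block (0.0573), with upper-quartile scaling (0.0802) and with only the 2 doses fitted (0.056). The 6 µM call ended without the 3 libraries that stood apart (0.175).

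Got1 and Got2 are the cytosolic and mitochondrial aspartate aminotransferases. Got2 had 370, 364, 369 and 378 CPM at 0 µM, 377, 401, 386 and 391 CPM at 2 µM and 416, 409, 398 and 410 CPM at 6 µM, and Got1 had 146, 128, 150 and 130 CPM at 0 µM, 160, 159, 163 and 188 CPM at 2 µM and 169, 153, 162 and 143 CPM at 6 µM. Got2 at 6 µM and Got1 at 2 µM lay wholly above their controls, while Got2 at 2 µM and Got1 at 6 µM overlapped them. For Got2 the log2 fold change was 0.14 ± 0.0354 at 6 µM (edgeR adjusted p = 0.0143) and 0.07 ± 0.0354 at 2 µM (adjusted p = 0.377), against 0 µM. For Got1 it was 0.18 ± 0.0632 at 6 µM (adjusted p = 0.0825) and 0.28 ± 0.0631 at 2 µM (adjusted p = 0.0201). At 6 µM Got1 was called with no count filter (0.00737), by DESeq2 (0.0394) and without replicate 4 of 6 µM. The Got2 call at 6 µM ended without replicate 1 of 6 µM (adjusted p = 0.0501). The Got1 call at 2 µM ended without replicate 2 (0.0865) or 4 (0.0574) of 0 µM and without replicate 4 of 2 µM (0.119), which was its highest library.

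Gpt2, the mitochondrial alanine aminotransferase, was highest at 2 µM. Its libraries had 954, 862, 988 and 882 CPM at 0 µM, 1027, 1031, 1011 and 1107 CPM at 2 µM and 959, 985, 958 and 882 CPM at 6 µM, so the 2 µM values lay above both other doses without overlap. It rose at 2 µM against 0 µM with a log2 fold change of 0.18 ± 0.0450 (edgeR adjusted p = 0.0345). At 6 µM the values were 0.04 ± 0.0450 against 0 µM (adjusted p = 0.687) and -0.14 ± 0.0450 against 2 µM (adjusted p = 0.147). The 2 µM call ended in 5 of 12 fits without 1 library (replicates 2 and 4 of 0 µM and 1, 2 and 4 of 2 µM, adjusted p from 0.0516 to 0.167), with the replicate block (0.0591) and with upper-quartile scaling (0.0622).

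Glul, glutamine synthetase, and Pck2, the mitochondrial enzyme that makes phosphoenolpyruvate from oxaloacetate, were not called. Glul ranged from 49.9 to 64.0 CPM over the 12 libraries, with log2 fold changes of 0.04 ± 0.0702 at 6 µM and -0.06 ± 0.0702 at 2 µM against 0 µM. For Pck2 they were 0.06 ± 0.0382 and 0.11 ± 0.0382 at 6 and 2 µM (edgeR adjusted p = 0.389 and 0.143).

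The 2 enzymes of transsulfuration, which turns homocysteine into cysteine, were far apart in level. Cth, the second of them, had 112, 101, 109 and 83.7 CPM at 0 µM, 117, 120, 117 and 133 CPM at 2 µM and 103, 111, 103 and 100 CPM at 6 µM. As with Gpt2, all 2 µM libraries lay above the other 8, and the 0 and 6 µM libraries overlapped. Cth rose at 2 µM with a log2 fold change of 0.27 ± 0.0685 (1.20-fold, edgeR adjusted p = 0.0389), against 0.04 ± 0.0687 at 6 µM (adjusted p = 0.786), both relative to 0 µM. The direct comparison of 6 µM with 2 µM gave -0.23 ± 0.0683 (adjusted p = 0.123), the lowest adjusted p of the 33 genes between these doses. That difference was called with no count filter (0.00411), by DESeq2 (0.0472), with only the 2 doses fitted (0.0195) and without replicate 4 of 0 µM (0.0293). The 2 µM call ended in 7 of 12 fits without 1 library (replicates 2 and 4 of 0 µM, each of 2 µM and replicate 3 of 6 µM, adjusted p from 0.051 to 0.187), with the replicate block (0.0631), with upper-quartile scaling (0.0606) and with only the 2 doses fitted (0.054). Cbs, the first enzyme, was low, at 1.99 to 3.41 CPM, or 61 to 170 counts per library. Its 95% interval at 6 µM against 0 µM ran -0.30 to 0.70 on the log2 scale.

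Of the 3 proline and ornithine genes, the proline-making Aldh18a1 and Pycr1 rose at 6 µM, Aldh18a1 also at 2 µM, and the ornithine-degrading Oat was lower without being called. Aldh18a1, which reduces glutamate towards proline, had 414, 387, 419 and 399 CPM at 0 µM, 453, 461, 459 and 484 CPM at 2 µM and 463, 485, 452 and 455 CPM at 6 µM. The control libraries lay below all 8 others. Its log2 fold change against 0 µM was 0.20 ± 0.0388 at 6 µM (edgeR adjusted p = 0.00240) and 0.20 ± 0.0388 at 2 µM (adjusted p = 0.00894), and the 2 µM call ended without replicate 4 of 2 µM (0.0529).

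Pycr1, the mitochondrial enzyme of the last step to proline, had 79.6, 88.9, 87.6 and 83.8 CPM at 0 µM, 86.8, 94.2, 91.0 and 94.4 CPM at 2 µM and 101, 97.2, 99.1 and 89.3 CPM at 6 µM. The 6 µM libraries cleared the control range by a narrow gap, and the 2 µM libraries overlapped it. Its log2 fold change was 0.19 ± 0.0521 at 6 µM (edgeR adjusted p = 0.0271) and 0.11 ± 0.0521 at 2 µM (adjusted p = 0.356). The 6 µM call ended in 5 of 12 fits without 1 library (replicates 1 and 4 of 0 µM and 1, 2 and 3 of 6 µM, adjusted p from 0.0513 to 0.0966) and without the 3 libraries that stood apart (0.258).

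Oat, ornithine aminotransferase, had 157, 160, 146 and 148 CPM at 0 µM, 144, 139, 131 and 135 CPM at 2 µM and 136, 136, 146 and 135 CPM at 6 µM. All PFOS libraries lay below the control ones, by a small gap. The log2 fold change was -0.14 ± 0.0457 at 6 µM (edgeR adjusted p = 0.0594) and -0.15 ± 0.0457 at 2 µM (adjusted p = 0.0866), against 0 µM. It was called at 6 µM with upper-quartile scaling (0.0372), above a mean count of 50 (0.0375), by DESeq2 (0.0323) and without replicate 4 of 0 µM (0.0491), and at 2 µM by DESeq2 (0.0297). Oat overlaps Fgfr2 on the same strand, which had a log2 fold change of -0.22 at 6 µM against 0 µM (adjusted p = 0.0517).

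Bcat2, the mitochondrial branched-chain aminotransferase, was the only one of the 33 to fall. It had 43.4, 55.9, 48.9 and 49.4 CPM at 0 µM, 46.2, 40.4, 43.9 and 40.9 CPM at 2 µM and 42.2, 40.4, 40.5 and 40.3 CPM at 6 µM, so that the 6 µM libraries lay together below all controls while those at 2 µM overlapped them. At 6 µM against 0 µM it fell with a log2 fold change of -0.28 ± 0.0692 (1.21-fold lower, edgeR adjusted p = 0.0146), and at 2 µM the value was -0.21 ± 0.0690 (adjusted p = 0.133). The call ended without replicate 2 of 0 µM, the highest control library (adjusted p = 0.0731). At 2 µM it was called without replicate 1 of 0 µM (0.0316). Bcat1, its cytosolic counterpart, was not called, with 0.09 ± 0.0408 at 6 µM and 0.13 ± 0.0408 at 2 µM (adjusted p = 0.203 and 0.111). The FPKM level of Bcat2 over Bcat1 was 0.517 ± 0.0589 at 0 µM, 0.410 ± 0.0298 at 2 µM and 0.402 ± 0.0197 at 6 µM (mean ± SD, n = 4 each), given as a description without a test.

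Of the 11 transporters, 4 rose at each dose and none fell. The calls over all tested genes were 4.58% higher and 3.66% lower at 6 µM, and 1.61% and 0.742% at 2 µM. Slc7a5 and Slc6a9 were called at both doses, Slc38a1 and Slc1a5 at 6 µM, and Slc3a2 and Slc7a1 at 2 µM. Their summed level was 3025 to 3246 CPM at 0 µM, 3370 to 3618 CPM at 2 µM and 3254 to 3421 CPM at 6 µM.

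Slc6a9, a sodium- and chloride-coupled glycine transporter (ENSMUSG00000028542, chr4:117834506-117875198 in GRCm38, plus strand), showed the largest log2 fold change of the 33 genes at 2 µM. It had 119, 110, 117 and 107 CPM at 0 µM, 132, 134, 143 and 157 CPM at 2 µM and 137, 138, 136 and 131 CPM at 6 µM. All PFOS libraries lay above the controls, and the 2 PFOS doses overlapped. The log2 fold change was 0.26 ± 0.0533 at 6 µM (1.20-fold, edgeR adjusted p = 0.00320) and 0.32 ± 0.0532 at 2 µM (1.25-fold, adjusted p = 0.00230), against 0 µM. Its gene overlaps B4galt2 on the other strand, whose log2 fold changes were 0.03 at 6 µM and -0.03 at 2 µM and were not called.

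Slc7a5 is the light chain of the exchanger that brings in leucine and other large neutral amino acids, and Slc3a2 is the heavy chain that it shares with several other light chains. Slc7a5 had 810, 836, 913 and 865 CPM at 0 µM, 969, 959, 954 and 1028 CPM at 2 µM and 979, 982, 950 and 924 CPM at 6 µM, with no overlap between control and PFOS libraries. Slc3a2 had 526, 538, 557 and 518 CPM at 0 µM, 594, 616, 593 and 665 CPM at 2 µM and 597, 586, 588 and 547 CPM at 6 µM, where 1 library at 6 µM reached into the control range. The log2 fold change of Slc7a5 was 0.16 ± 0.0394 at 6 µM (edgeR adjusted p = 0.0110) and 0.19 ± 0.0394 at 2 µM (adjusted p = 0.0114). For Slc3a2 it was 0.12 ± 0.0420 at 6 µM (adjusted p = 0.0949) and 0.21 ± 0.0420 at 2 µM (adjusted p = 0.0111). The FPKM level of Slc7a5 over Slc3a2 averaged 1.52 at 0 µM, 1.51 at 2 µM and 1.58 at 6 µM. Both 2 µM calls ended without replicate 4 of 2 µM (adjusted p = 0.0719 for Slc7a5 and 0.0673 for Slc3a2), and the Slc7a5 call at 6 µM ended without the 3 libraries that stood apart (0.141).

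The 2 other light chains on the list were not called at either dose. Slc7a11, which exchanges cystine for glutamate, had 114, 97.8, 109 and 104 CPM at 0 µM, 113, 137, 127 and 116 CPM at 2 µM and 114, 127, 121 and 116 CPM at 6 µM, overlapping at every dose. Its log2 fold change was 0.17 ± 0.0602 at 6 µM (edgeR adjusted p = 0.0905) and 0.21 ± 0.0602 at 2 µM (adjusted p = 0.0654). It was called at both doses with no count filter (0.0218 at 6 µM and 0.00382 at 2 µM) and by DESeq2 (0.0469 and 0.0174). Slc7a6, which exchanges cationic for neutral amino acids, stayed between 46.9 and 55.7 CPM in all libraries.

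Slc7a1, a carrier of arginine and lysine, had 253, 232, 261 and 247 CPM at 0 µM, 278, 285, 279 and 302 CPM at 2 µM and 280, 277, 264 and 260 CPM at 6 µM. The 2 µM libraries cleared the control range and 1 library at 6 µM did not. It rose at 2 µM with a log2 fold change of 0.20 ± 0.0440 (edgeR adjusted p = 0.0150), beside 0.12 ± 0.0441 at 6 µM (adjusted p = 0.0958), both against 0 µM. The 2 µM call ended without replicate 2 of 0 µM (0.0545) or replicate 4 of 2 µM (0.0874).

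Of the 4 carriers of glutamine and small neutral amino acids, Slc38a1 and Slc1a5 rose at 6 µM, and none was called at 2 µM. Slc38a1, a sodium-coupled glutamine carrier, had 187, 175, 185 and 183 CPM at 0 µM, 189, 189, 205 and 197 CPM at 2 µM and 209, 209, 206 and 203 CPM at 6 µM, and Slc1a5, a glutamine and neutral amino acid exchanger, had 94.9, 90.2, 98.6 and 92.1 CPM at 0 µM, 101, 101, 103 and 107 CPM at 2 µM and 106, 107, 105 and 104 CPM at 6 µM. In both, every PFOS library was above every control library. Slc38a1 rose at 6 µM by a log2 fold change of 0.18 ± 0.0408 (edgeR adjusted p = 0.00669) and Slc1a5 by 0.17 ± 0.0445 (adjusted p = 0.0215). At 2 µM neither passed, at 0.09 ± 0.0408 and 0.13 ± 0.0445 (adjusted p = 0.276 and 0.147). The Slc1a5 call ended without replicate 2 of 0 µM (0.0657), without replicate 1 of 6 µM (0.0526) and without the 3 libraries that stood apart (0.114).

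Slc38a2, a close relative of Slc38a1, and Slc1a4, a relative of Slc1a5, were not called. Slc38a2 ranged from 582 to 647 CPM over the 12 libraries, with log2 fold changes of -0.03 ± 0.0379 at 6 µM and 0.01 ± 0.0379 at 2 µM against 0 µM. For Slc1a4 these were 0.03 ± 0.0426 and 0.09 ± 0.0426 at 6 and 2 µM (edgeR adjusted p = 0.787 and 0.371). Slc43a1, a carrier of large neutral amino acids at a low level here, had 7.20, 7.91, 7.45 and 8.63 CPM at 0 µM, 6.12, 5.99, 6.90 and 5.14 CPM at 2 µM and 7.63, 6.88, 7.77 and 6.25 CPM at 6 µM. Its 2 µM libraries lay below the controls, with a log2 fold change of -0.37 ± 0.128 that did not pass (adjusted p = 0.156).

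**Figure D4:**
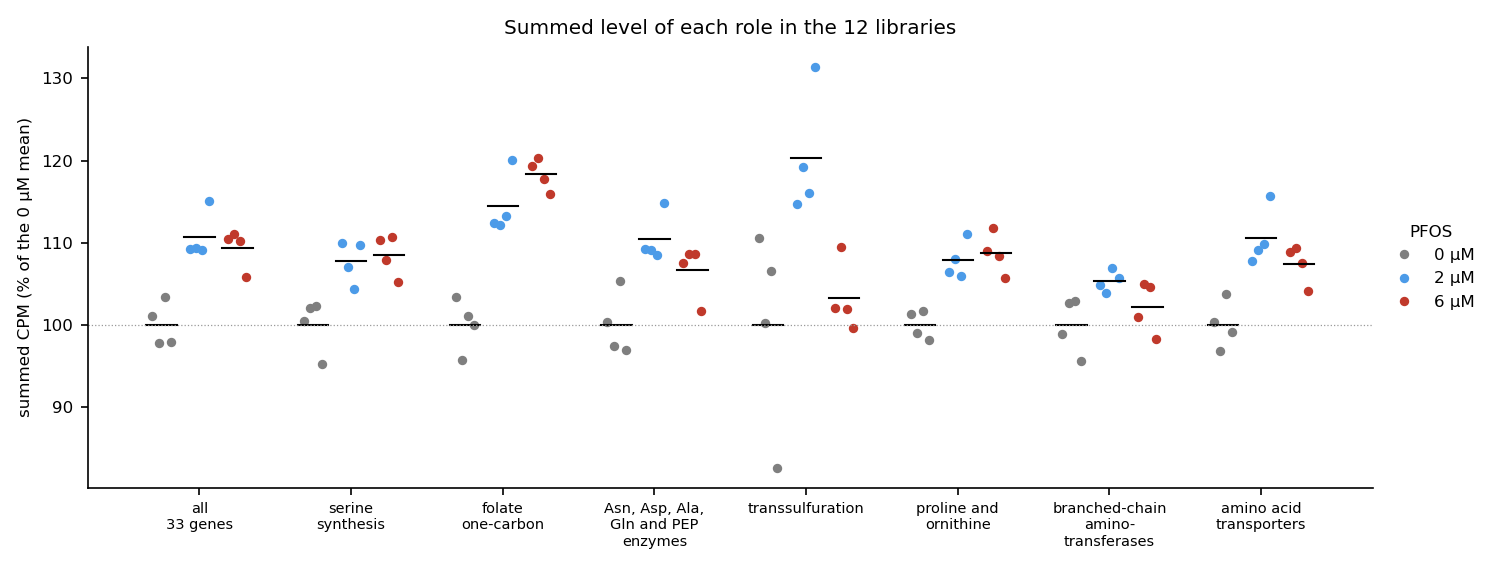
Summed CPM of the genes of each role in each library (points) as a percent of the mean at 0 µM, with bars at the mean of the 4 libraries at 0, 2 and 6 µM PFOS. Folate one-carbon genes reach 118% at 6 µM, transsulfuration is highest at 2 µM with 120%, and branched-chain aminotransferases average 105% at 2 µM and 102% at 6 µM.

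Summed over all 33 genes, the level was 9993 to 10560 CPM at 0 µM, 11153 to 11763 CPM at 2 µM and 10815 to 11356 CPM at 6 µM. The means at 2 and 6 µM were 111% and 109% of the mean at 0 µM. By role, the means at 2 and 6 µM were 108% and 109% for serine synthesis, 110% and 107% for the asparagine to phosphoenolpyruvate enzymes, 108% and 109% for proline and ornithine, 105% and 102% for branched-chain aminotransferases, and 111% and 107% for transporters. Sums are dominated by the abundant genes of a role and carry no test here.

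ATF4 binds the C/EBP-ATF response element, also called the amino acid response element, so the promoters were read for its core. RefSeq promoters on GRCm38.p6, 250 bases before to 50 after each annotated start, were found for 28 of the 33 genes (35 promoters). Those for Aldh1l2, Cth, Slc1a5, Slc38a1 and Slc7a5 were not in the table. The core was searched as TTNCATCA on both strands, where N is any base. It was present in 6 of the 28 genes (21.4%), against 1219 of 27025 genes (4.51%) in the whole promoter table. The stricter TTGCATCA, which is contained in the first, was present in 4 of the 28 (14.3%), against 279 of 27025 (1.03%). The list holds many known ATF4 targets, so a higher share than in the whole promoter table may follow from its choice. It is not a result about PFOS. A match describes letters in this window and does not show binding in these cells. Of the 6 genes, Asns, Pycr1 and Got1 were called higher at 1 or both doses, and Pck2, Slc1a4 and Slc7a11 were not called. Genes without a match were also called higher, namely Phgdh, Shmt2, Mthfd1, Mthfd1l, Got2, Gpt2, Aldh18a1, Slc3a2, Slc7a1 and Slc6a9. The other genes with a promoter in the table had no match and were not called higher. A link between match and call was not tested. The sequences are shown because they hold a match to this core, each 5′ to 3′ along its gene with the match in capitals. The Asns promoter (chr6:7693160-7693459, minus strand) and the Slc7a11 promoter (chr3:50443564-50443863, minus strand) are given whole, and the Slc7a11 promoter holds 2 matches on opposite strands.
Asns: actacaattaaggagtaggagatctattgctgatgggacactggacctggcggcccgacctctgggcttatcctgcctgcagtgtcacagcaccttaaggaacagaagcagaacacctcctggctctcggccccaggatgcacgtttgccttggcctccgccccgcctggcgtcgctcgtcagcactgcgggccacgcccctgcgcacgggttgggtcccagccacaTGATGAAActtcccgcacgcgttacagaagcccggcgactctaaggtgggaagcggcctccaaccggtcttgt
Slc7a11: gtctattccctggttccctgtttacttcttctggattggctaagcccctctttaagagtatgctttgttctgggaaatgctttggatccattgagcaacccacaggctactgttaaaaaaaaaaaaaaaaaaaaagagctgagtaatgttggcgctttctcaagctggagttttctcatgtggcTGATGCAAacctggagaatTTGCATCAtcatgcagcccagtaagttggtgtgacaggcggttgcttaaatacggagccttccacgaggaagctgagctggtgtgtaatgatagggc
The other 4 are given as 40-base windows. They lie at chr19:43524684-43524723 (minus strand) for Got1, chr14:55540147-55540186 (plus strand) for Pck2, chr11:120643828-120643867 (minus strand) for Pycr1 and chr11:20332694-20332733 (minus strand) for Slc1a4.
Got1: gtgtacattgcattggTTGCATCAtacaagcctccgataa
Pck2: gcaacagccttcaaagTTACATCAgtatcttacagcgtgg
Pycr1: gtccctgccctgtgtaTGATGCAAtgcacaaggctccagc
Slc1a4: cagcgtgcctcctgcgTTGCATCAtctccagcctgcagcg

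The rest of amino acid metabolism was read from lists of other genes of the same pathways. Of 20 other folate and one-carbon genes tested, 3 rose and 1 fell at 6 µM relative to 0 µM, against 4.58% and 3.66% of all tested genes. Their median log2 fold change was 0.02 (0.00 at 2 µM). The purine-synthesis enzyme Atic had 158 ± 8.82 CPM at 6 µM and 139 ± 4.78 CPM at 0 µM (SD, n = 4 each, edgeR adjusted p = 0.0125), and the folate carrier Slc19a1 had 57.1 ± 2.52 CPM at 6 µM and 49.9 ± 1.01 CPM at 0 µM (adjusted p = 0.0254). Ahcy, which hydrolyses S-adenosylhomocysteine, had a log2 fold change of 0.17 (adjusted p = 0.0394). Mat2a, which makes S-adenosylmethionine, fell to 109 ± 9.71 CPM at 6 µM, against 143 ± 13.7 CPM at 0 µM (log2 fold change -0.39, adjusted p = 0.000629). At 2 µM none of the 20 was called by edgeR or limma-voom, DESeq2 called 1 higher, and 3 were higher and 3 lower at an unadjusted p under 0.05. Over all tested genes the shares there were 1.61% higher and 0.742% lower by edgeR, and 7.88% and 6.24% at that unadjusted p. They were 1.85% and 0.829% by limma-voom, and 3.77% and 1.59% of the genes to which DESeq2 gave an adjusted p. The Ahcy call ended in 8 of 12 fits without 1 library (replicates 1, 2 and 3 of 0 µM, 2 and 4 of 2 µM, and 1, 2 and 3 of 6 µM, adjusted p from 0.0512 to 0.135) and with the replicate block (0.0725). The Slc19a1 call ended without replicate 2 of 0 µM (0.0662) and replicate 2 (0.0764) or 4 (0.0595) of 6 µM. Both ended, with that of Atic, without the 3 libraries that stood apart (0.326, 0.215 and 0.197).

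Of 18 other enzymes of amino acid synthesis and breakdown tested, 1 rose and 3 fell at 6 µM relative to 0 µM, against 4.58% and 3.66% of all tested genes. Their median log2 fold change was -0.03 (-0.04 at 2 µM). DESeq2 called 4 higher and 3 lower at 6 µM, against 7.18% and 4.97% of the genes to which it gave an adjusted p. Ivd, of leucine breakdown, had 50.8 ± 3.07 CPM at 6 µM and 63.9 ± 3.59 CPM at 0 µM (log2 fold change -0.33, edgeR adjusted p = 0.000738). Ass1, which makes argininosuccinate from citrulline and aspartate, had 18.5 ± 2.18 CPM at 6 µM and 26.4 ± 3.83 CPM at 0 µM (adjusted p = 0.00169). Aldh4a1, of proline breakdown, had 7.04 ± 1.11 CPM at 6 µM and 10.1 ± 0.980 CPM at 0 µM (adjusted p = 0.0176), a call that ended without replicate 3 of 0 µM (0.0543), without replicate 3 of 6 µM (0.072) and without the 3 libraries that stood apart (0.284). Odc1, which makes putrescine from ornithine, rose with a log2 fold change of 0.17 (adjusted p = 0.0112). None of the 18 was called at 2 µM by edgeR or limma-voom, DESeq2 called 1 lower, and 0 were higher and 2 lower at an unadjusted p under 0.05. Over all tested genes the shares there were 1.61% higher and 0.742% lower by edgeR, and 7.88% and 6.24% at that unadjusted p. They were 1.85% and 0.829% by limma-voom, and 3.77% and 1.59% of the genes to which DESeq2 gave an adjusted p.

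Of 19 other amino acid transporters tested, 2 rose and 2 fell at 6 µM, and 1 rose at 2 µM, relative to 0 µM. The calls over all tested genes were 4.58% higher and 3.66% lower at 6 µM, and 1.61% and 0.742% at 2 µM. The median log2 fold change was -0.11 at 6 µM and -0.08 at 2 µM. At 2 µM DESeq2 called 2 higher and 2 lower, against 3.77% and 1.59% of the genes to which it gave an adjusted p. Limma-voom called 0 higher and 2 lower, against 1.85% and 0.829% of all tested genes. At an unadjusted p under 0.05, 2 were higher and 5 lower, against 7.88% and 6.24%. The glutamate transporter Slc1a3 had 24.4 ± 2.61 CPM at 6 µM and 34.2 ± 1.55 CPM at 0 µM (log2 fold change -0.49, edgeR adjusted p = 0.000207). The cationic amino acid carrier Slc7a2 had 82.3 ± 2.36 CPM at 6 µM and 98.6 ± 5.49 CPM at 0 µM (adjusted p = 0.0037), and this call ended without the 3 libraries that stood apart (0.0867). Slc38a7 rose with a log2 fold change of 0.24 at 6 µM (adjusted p = 0.00885). Slc1a7, another glutamate transporter, had 2.58 ± 0.440 CPM at 0 µM, 4.30 ± 0.500 CPM at 2 µM and 5.45 ± 1.14 CPM at 6 µM, and rose at both doses (adjusted p = 0.000695 at 6 µM and 0.0372 at 2 µM). The 2 µM call of Slc1a7 ended in 5 of 12 fits without 1 library (replicates 3 and 4 of 0 µM and 1, 3 and 4 of 2 µM, adjusted p from 0.0615 to 0.144), with limma-voom (0.0873) and with the replicate block (0.0638).

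Of 35 regulators and outputs of the integrated stress response tested, 13 rose and 2 fell at 6 µM, and 17 rose at 2 µM, relative to 0 µM. The calls over all tested genes were 4.58% higher and 3.66% lower at 6 µM, and 1.61% and 0.742% at 2 µM. At 2 µM none was lower by edgeR, DESeq2 or limma-voom, or at an unadjusted p under 0.05 (0 genes). Over all tested genes 0.829% were lower by limma-voom and 6.24% at that unadjusted p, and 1.59% of those with an adjusted p by DESeq2. The median log2 fold change was 0.13 at 6 µM and 0.16 at 2 µM. At 2 µM the count of genes that rose was 5 without replicate 4 of 2 µM, 11 without replicate 1 or 2 of 2 µM, 9 without replicate 2 and 7 without replicate 4 of 0 µM, and 11 with upper-quartile scaling. Over all tested genes, 258 were higher at 2 µM in the main fit. In these fits, in the same order, 72, 206, 157, 139, 209 and 184 were. At 6 µM 8 of the stress genes rose without the 3 libraries that stood apart, where the count over all tested genes was 408 in place of 735. The 2 that fell at 6 µM, also named after their values were seen, were Chac1, which degrades glutathione (log2 fold change -0.24, edgeR adjusted p = 0.0023), and Impact, an inhibitor of the amino acid sensor GCN2 (-0.26, adjusted p = 0.0429). The count of 2 was 1 in 9 of 12 fits that left out 1 library, all but those without replicate 1 or 4 of 0 µM or replicate 2 of 6 µM. Over all tested genes those 9 fits called 398 to 556 lower, in place of 587.

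Atf4 itself, chosen for mention after its values were seen, had 923 ± 42.8 CPM at 0 µM, 1028 ± 17.001 CPM at 2 µM and 1039 ± 28.2 CPM at 6 µM, and rose at both doses (edgeR adjusted p = 0.00443 at 6 µM and 0.0245 at 2 µM). Its call at 6 µM ended without the 3 libraries that stood apart (0.0863). At 2 µM it ended without them (0.0544), without replicate 4 of 0 µM (0.0572) and without replicate 1 (0.0539), 2 (0.0726) or 4 (0.0947) of 2 µM. Atf3, a stress-induced factor, rose with log2 fold changes of 0.64 at 6 µM and 0.80 at 2 µM (adjusted p = 0.000351 and 0.000163). Ppp1r15a, which brings back translation after the stress, rose by 0.48 and 0.78 at 6 and 2 µM (adjusted p = 0.00231 and 8.64e-05). The tryptophan and glycine transfer-RNA ligases Wars and Gars rose at 6 µM by 0.42 and 0.21 (adjusted p = 6.38e-06 and 0.000754), as did the transfer-RNA exporter Xpot by 0.21 (adjusted p = 0.00172). At 2 µM the secreted hormone Fgf21 rose by 0.46 (adjusted p = 0.0025) and the stress-induced Nupr1 by 0.35 (adjusted p = 0.00776). Between 6 and 2 µM, 0 rose and 2 fell of these 35, against 0.561% and 0.549% of all tested genes. DESeq2 called 1 higher and 5 lower, against 1.78% and 1.62% of the genes to which it gave an adjusted p. Limma-voom called 0 higher and 4 lower, against 0.792% and 0.686%. At an unadjusted p under 0.05, 3 were higher and 8 lower, against 5.75% and 6.77% of all tested genes. Chac1 had a log2 fold change of -0.20 and Nupr1 of -0.28 (both adjusted p = 0.0456). The Chac1 call ended in 9 of 12 fits without 1 library (all but those without replicate 1 or 4 of 0 µM or replicate 3 of 6 µM, adjusted p from 0.0523 to 0.150), and the Nupr1 call in 8 (replicate 2 of 0 µM, 2, 3 and 4 of 2 µM and each of 6 µM, adjusted p from 0.056 to 0.198). With the replicate block the values were 0.0809 and 0.0743, and without the 3 libraries that stood apart 0.0761 and 0.107.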

How the data were processed

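Read counts of 54532 genes in 12 libraries were taken as the authors deposited them, unnormalized. The submitters' processing notes name HISAT2 and the build GRCm39, but 32 of the 33 genes have the position of GENCODE M21, which is on GRCm38, so coordinates are given on GRCm38. For the counter, its strand setting and all versions the entry is not given in the sources used.

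In edgeR 4.0.16 (R 4.3.3), libraries were scaled by TMM, filterByExpr (minimum count 10) kept 16038 genes, and a single quasi-likelihood fit held 1 mean for each dose and all 12 libraries (9 residual degrees of freedom). P-values were Benjamini-Hochberg adjusted over all genes tested. Standard errors are the log2 fold change over the square root of F, and 95% intervals use them with the 9 residual degrees of freedom. The test uses other degrees of freedom, so an interval and a p-value need not match. CPM are TMM-scaled, and FPKM divide them by the listed gene length.

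The 33 genes and the other lists were chosen with earlier results of these data known. Named genes are all 33, and up to 4 called genes with the smallest adjusted p per other list and comparison. Other-list rows that did not pass the count filter were not tested, among them a row named Ddit3 and a row named Gcat. A symbol standing for more than 1 row of the table was counted by row. Alternatives were DESeq2 1.42.0, limma-voom (limma 3.58.1), other scalings and filters, a replicate block, only the 2 doses compared, and fits without single libraries. The pipeline was also run on simulated data. The smallest simulated fold lay above the smallest folds called here, so that run does not cover them.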

Additional observations from a re-analysis of the deposited data

Results flagged for a closer look

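Levels of single libraries were set against the other 3 of their dose, over 183 gene or role and dose groups, and 20 had 1 library far from the rest. Chance flags about 1 in 20 such groups. The sums contain the single genes, so the groups are not independent and 1 library can be flagged several times over. Replicate 4 of 2 µM was the high library in 6 of the 20. It gave 546 CPM for Shmt2 (next 519 CPM), 188 CPM for Got1 (next 163 CPM), 369 CPM for Slc1a4 (next 334 CPM), 11763 CPM for the sum of all 33 genes (next 11174 CPM), 2380 CPM for the summed folate genes (next 2244 CPM) and 3076 CPM for the summed asparagine to phosphoenolpyruvate enzymes (next 2926 CPM). Calls at 2 µM that ended without this library are given with each gene.

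Replicate 4 of 6 µM was the low library in 4 groups. It had 2724 CPM for the summed asparagine to phosphoenolpyruvate enzymes (next 2880 CPM), 41.7 CPM for Ppp1r15a (next 53.3 CPM), 53.1 CPM for Fgf21 (next 63.9 CPM) and 116 CPM for Wars (next 126 CPM). Replicate 4 of 0 µM was low in 2, with 120 CPM for Psph (next 137 CPM) and 649 CPM for Gars (next 699.9 CPM). Replicate 2 of 0 µM was low in 3, with 28.2 CPM for Shmt1 (next 31.0 CPM), 308 CPM for Slc1a4 (next 326 CPM) and 8.599 CPM for Aldh4a1 (next 10.4 CPM).

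The other 5 were high values. Replicate 2 of 6 µM had 359 CPM for Mthfd2 (next 329 CPM) and 124 CPM for Mat2a (next 105 CPM). Replicate 3 of 6 µM had 146 CPM for Oat (next 136 CPM), replicate 1 of 6 µM had 42.2 CPM for Bcat2 (next 40.5 CPM), and replicate 1 of 2 µM had 103 CPM for Ahcy (next 99.6 CPM).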

How the results depend on the processing

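Of the 14 calls at 6 µM against 0 µM, 6 held in every one of 21 alternatives (Shmt2, Mthfd1l, Aldh1l2, Aldh18a1, Slc38a1 and Slc6a9), as did 3 of 12 at 2 µM against 0 µM (Mthfd1l, Aldh1l2 and Slc6a9). No called value changed sign under any of the 21. Some uncalled genes were called in at least 1 alternative. Against 0 µM these were 7 at 6 µM (Psat1, Psph, Got1, Oat, Slc7a11, Slc3a2 and Slc7a1). At 2 µM they were also 7 (Phgdh, Psph, Pck2, Oat, Bcat1, Bcat2 and Slc7a11). Genes higher at 6 µM than at 0 µM numbered 13, between 9 and 13 when 1 library was left out, and 7 without the 3 libraries that stood apart. The 9 came without replicate 1 of 6 µM, where 513 of all tested genes were higher in place of 735. Genes lower there numbered 1, became 2 with upper-quartile scaling, above a mean count of 50 and by DESeq2, and ran from 0 to 2 when 1 library was left out. Genes higher at 2 µM than at 0 µM numbered 12 and ran from 3 (without replicate 4 of 2 µM) to 12 when 1 library was left out. DESeq2 called 18 genes higher at 6 µM and 16 at 2 µM against 0 µM, while over all genes it called 1050 and 508 in place of 735 and 258. Genes lower at 2 µM numbered 0, with 1 by DESeq2 (Oat), 1 without the 3 libraries (Bcat2), and 0 to 1 when 1 library was left out. Between 6 and 2 µM, 0 genes were higher in any fit, and 0 were lower, with 1 (Cth) with no count filter, by DESeq2 and with only the 2 doses compared, and 0 to 1 when 1 library was left out. The cause of these changes was not tested.

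With the replicate number as a block, 11 genes were higher and 1 lower at 6 µM, 9 higher and 0 lower at 2 µM, each against 0 µM, and 0 differed between 6 and 2 µM in either direction. Over all tested genes the block gave 648 higher and 506 lower at 6 µM, in place of 735 and 587. At 2 µM it gave 192 and 81, in place of 258 and 119. Between 6 and 2 µM it gave 69 and 54, in place of 90 and 88. The replicate numbers share no stated culture or day: the 12 pairs of libraries with the same number had correlations of their deviations from -0.0982 to 0.0451, 0 of them over 0.1, and 2 of 12 libraries correlated best with their own number. The block is therefore no pairing given by the design. It ended no call of the 33 genes beyond those named above.

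The smallest fold called among the 33 was 1.10 at 6 µM and 1.11 at 2 µM, both against 0 µM. For Cbs, at 1.99 to 3.41 CPM, the 95% interval at 6 µM against 0 µM ran from -0.30 to 0.70 on the log2 scale. The strand setting and the cultures of origin are not given in the sources used, and Aldh1l2 and Psph overlap genes that were themselves called at 6 µM against 0 µM.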
